A study of Mus musculus with 6 samples.

Results

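The 10 genes described here encode heat shock proteins of several classes: the inducible HSP70 genes Hspa1a and Hspa1b, the constitutive HSP70 gene Hspa8, the co-chaperone genes Hsph1 and Dnajb1, the cytosolic HSP90 gene Hsp90aa1, the small heat shock protein genes Cryab and Hspb1, and the mitochondrial chaperonin genes Hspd1 and Hspe1. They were chosen by symbol, matched to Ensembl identifiers through GENCODE mouse release M21, from 54532 genes in the deposited table of FPKM (fragments per kilobase of exon over a divisor for each library). All 10 were found once in the table. All 10 were also among the 14225 genes tested, those with 3 or more libraries at or above 0.5 FPKM. Each of the 10 was above that minimum in all 6 libraries, so none of them entered the test through 1 group alone.

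RNA sequencing was described by the authors as done on left ventricular myocardium, named as heart in the sample labels. The tissue came from 6 distinct male C57BL/6 mice that were 6 to 8 weeks old at the start. In the HFpEF group, a model of heart failure with preserved ejection fraction, 3 mice were kept for 12 weeks on high-fat feed (fat supplying 60% of the kcal) and drank water with L-NAME, which blocks nitric oxide synthase, at 0.5 g/L. The 3 Chow mice received standard chow and regular water over the same time. No transgene or deletion was named in either group, and diet and L-NAME were always given together, so their effects cannot be told apart.

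Heat shock proteins bind unfolded or partly folded proteins and keep them from aggregating. HSP70 chaperones take up clients that J-domain proteins deliver and release them when a nucleotide exchange factor acts, HSP90 completes the folding of many kinases and receptors, small heat shock proteins hold clients without ATP, and the chaperonin of the mitochondrial matrix folds imported proteins in a closed chamber. Transcription of the inducible members is driven by heat shock factor 1, which binds as a trimer to inverted repeats of the letters GAA, called heat shock elements. In heart muscle, alpha B-crystallin (Cryab) is very abundant and is known for its association with desmin and titin.

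The reads recovered from the FPKM steps totalled 13076772 to 15574914 per Chow library and 13461735 to 16027084 per HFpEF library, and replicates are named below by group and number. The divisor implied by these steps was below the recovered reads in every Chow library and above them in every HFpEF library. It was 14239712 for 15574914 reads in Chow 1 and 19316914 for 15196287 reads in HFpEF 3. The deposited FPKM was thus not a division by recovered reads, and all comparisons of FPKM rest on that divisor. Ventricular cardiomyocyte markers were present in all 6 libraries, with a geometric mean of 9 genes of 1161 to 1238 FPKM in Chow and 548 to 847 in HFpEF, and all 9 were lower in HFpEF without overlap. The atrial markers Myl7, Myl4 and Sln summed to 342 FPKM in Chow 3, 1408 in HFpEF 1 and 2882 in HFpEF 2, against 0.528 to 12.6 in the other libraries. Whether tissue other than left ventricle was in these libraries was not tested. HFpEF 3 stood apart, with a sum of 5522 FPKM for 8 fibroblast markers against 425 and 494 in HFpEF 1 and HFpEF 2 and 220 to 259 in Chow, and with 7.17% of its reads from mitochondrially encoded genes against 20.1% to 26.0% in the others. The 7 adipocyte markers summed to at most 0.0436 FPKM in Chow, where Adipoq, Cfd, Cidec, Lep and Retn were at 0, and to 29.3 to 60.7 in HFpEF. In bulk tissue, fewer cells of a type and less RNA per cell cannot be told apart.

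In FPKM, all 3 HFpEF libraries exceeded all Chow libraries for the inducible HSP70 pair and lay under all of them for Cryab, Hspd1 and Hspe1, while the other 5 genes overlapped between groups. Scaling the libraries to ventricular cardiomyocyte markers moved the median of all genes tested to 0.68 on the log2 scale and the fitted values of Cryab, Hspd1 and Hspe1 to 0.057, 0.21 and 0.17. Relative to the median of all genes these 3 genes then stood at −0.62, −0.47 and −0.51, against −0.65, −0.50 and −0.53 under the scaling used here. With quantile normalization they stood nearer to that median, at −0.17, −0.21 and −0.33. By limma with Benjamini-Hochberg adjustment, 1 of the 10 genes, Hspa1a, passed an adjusted p of 0.05, and it was higher in HFpEF. Over all genes tested 0.0984% passed, 0.0914% higher and 0.00703% lower. None of the 10 also reached an absolute log2 fold change of 2, a pair of criteria met by 0.0562% of all genes (8 genes). An unadjusted p under 0.05 was reached by 4 of the 10, Hspa1a and Hspa1b higher and Hspd1 and Hspe1 lower, where 10.2% of all genes passed in the higher and 13.1% in the lower direction. Groups did not overlap for 2 higher and 3 lower genes, against 15.6% and 19.7% of all genes (35.3% in either direction). The median fitted log2 fold change of the 10 genes was 0.066, beside −0.012 for all genes tested.

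**Figure D1:**
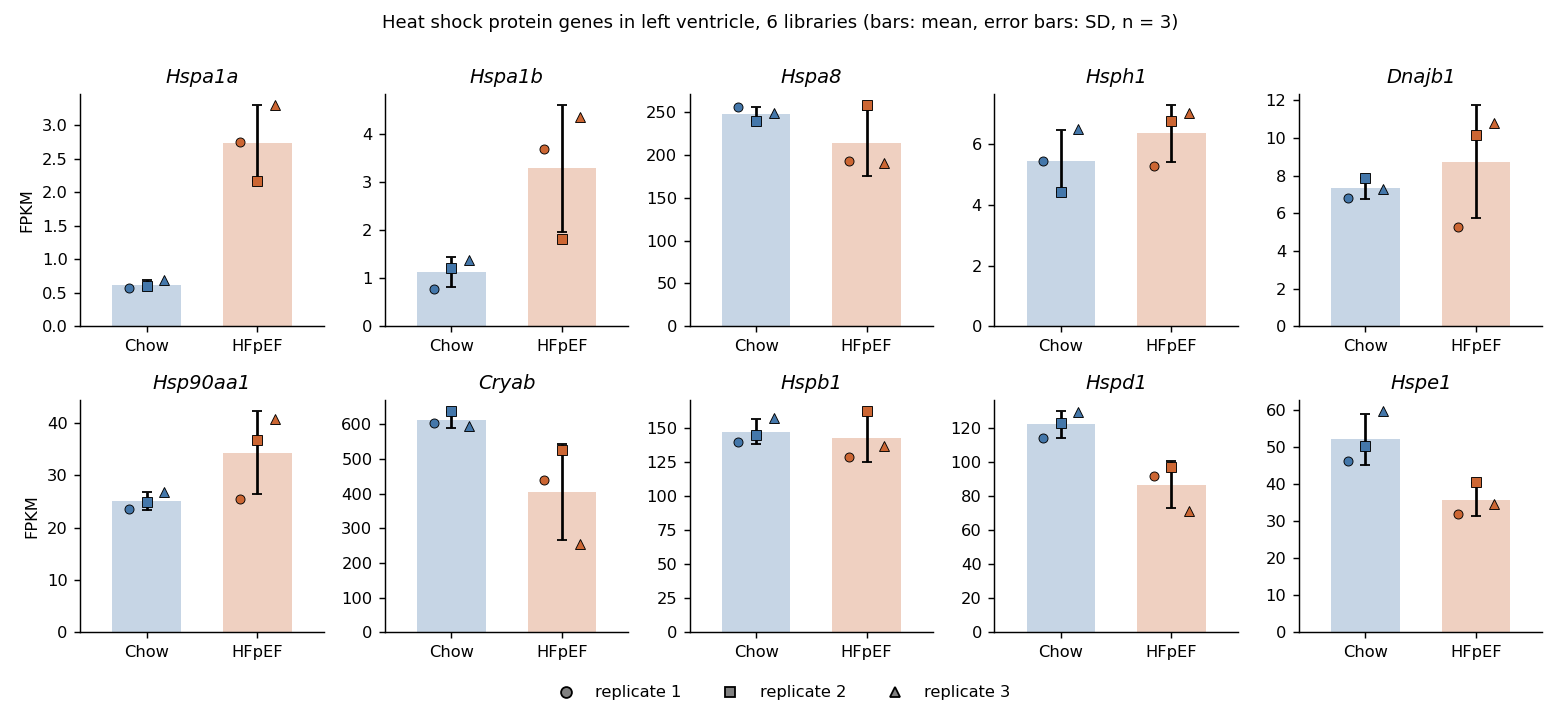
FPKM of each heat shock protein gene (vertical axes, starting at 0 and differing between panels) in 3 Chow and 3 HFpEF libraries, with bars for the group mean, error bars for the SD and a symbol for each replicate. The HFpEF points of Hspa1a and Hspa1b lay above all Chow points, those of Cryab, Hspd1 and Hspe1 lay below them, and the other 5 genes overlapped.

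FPKM is a level per length, so the genes can be ordered by it, the length being all annotated exon bases of a gene. This length can exceed that of a transcript, as for Hspa8 with 4301 exon bases and 2394 in transcript Hspa8-201. Close ranks therefore depend on the length used. In Chow hearts the order of mean FPKM was Cryab, Hspa8, Hspb1, Hspd1, Hspe1, Hsp90aa1, Dnajb1, Hsph1, Hspa1b and Hspa1a, and none of the 9 neighbouring pairs in this order overlapped in range. The same order held for the HFpEF means, but there 4 of the 9 neighbouring pairs overlapped, namely Cryab with Hspa8, Hspe1 with Hsp90aa1, Dnajb1 with Hsph1, and Hspa1b with Hspa1a. In HFpEF 3, Hsp90aa1 at 40.9 FPKM stood above Hspe1 at 34.6.

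The summed FPKM of the 10 genes was 1191, 1231 and 1227 in Chow 1 to 3, and 920.0, 1136 and 749 in HFpEF 1 to 3. Every HFpEF library was below every Chow library, with a mean of 935 ± 194 (SD, n = 3) against 1216 ± 22.2 (SD, n = 3), although 3 against 3 cannot give an exact permutation p below 0.1, which is the value obtained (two-sided). Cryab alone made up 50.4%, 51.7% and 48.3% of the sum in Chow and 47.4%, 46.0% and 33.7% in HFpEF. Without Cryab the sums overlapped, at 590 to 635 FPKM in Chow and 484 to 613 in HFpEF (exact permutation p = 0.3, two-sided). As a share of all FPKM outside the mitochondrially encoded genes, the 10 genes also overlapped, at 0.471% to 0.481% in Chow and 0.374% to 0.508% in HFpEF (exact permutation p = 0.4, two-sided), and with each library rescaled to 1000000 (TPM) the difference of the sums turned to 244 higher in HFpEF.

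Hspa1a and Hspa1b encode nearly identical stress-inducible HSP70 proteins and are neighbours on chromosome 17 of GRCm38, both on the minus strand, Hspa1a (ENSMUSG00000091971) at 34969190 to 34972156 and Hspa1b (ENSMUSG00000090877) at 34956436 to 34959238. Their promoters are shown because the 2 genes had the largest differences among the 10. In the RefSeq windows of 300 bases around the start, from 250 bases before to 50 after, the pair differed at 4 bases (98.7% identical). The 100 bases printed here, on the minus strand of GRCm38.p6 at chr17:34972197-34972296 for Hspa1a and at chr17:34959279-34959378 for Hspa1b, carry the same letters, and the capitals mark a heat shock element of 2 units that begins 104 bases before the start.
Hspa1a: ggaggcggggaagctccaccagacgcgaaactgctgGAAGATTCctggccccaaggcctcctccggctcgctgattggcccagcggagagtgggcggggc
Hspa1b: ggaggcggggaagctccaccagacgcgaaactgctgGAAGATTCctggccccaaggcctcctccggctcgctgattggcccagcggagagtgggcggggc

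An element of 2 units was searched as GAANNTTC or TTCNNGAA, and one of 3 units as GAANNTTCNNGAA or TTCNNGAANNTTC, where N is any base, each form being searched on both strands because it reads the same or as its partner on the other, and overlapping matches were kept. Of 32851 RefSeq windows of this length, 15.1% held at least 1 match of 2 units and 0.603% a match of 3 units. Of the 10 genes, 7 had a window, 6 of these held a match of 2 units in at least 1 of their windows, and 3 (Hspd1, Hspe1 and Hsph1) held a match of 3 units, that of Hsph1 lying after the start. Dnajb1 had 2 windows and no match in these letters. A match is a description of the letters, and binding was not measured.

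Hspa1a was at 0.568, 0.603 and 0.697 FPKM in Chow 1 to 3, and at 2.75, 2.17 and 3.30 in HFpEF 1 to 3. All 3 HFpEF libraries were above all Chow libraries, and the lowest of them, HFpEF 2, was more than 3 times the highest Chow library. The mean was 2.74 ± 0.565 (SD, n = 3) against 0.623 ± 0.0665 (SD, n = 3), a ratio of 4.40. These values rested on 24, 21 and 25 recovered reads in Chow and 113, 109 and 189 in HFpEF, and the exact Poisson 95% intervals, which cover counting error only, reached at most 36.9 reads in Chow and at least 89.5 in HFpEF. By limma on log2(FPKM + 0.1), a scale that understates changes of low genes, the log2 fold change was 1.96 (standard error 0.21, 95% interval 1.45 to 2.46, adjusted p = 0.0493). Hspa1a therefore rose in HFpEF hearts in this fit, by an adjusted p close to the threshold.

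The call depended on the libraries used. With limma the adjusted p of Hspa1a was 0.211, 0.244 and 0.198 without Chow 1, Chow 2 and Chow 3, 0.0975 without HFpEF 1, 0.0432 without HFpEF 2 and 0.0138 without HFpEF 3, while its log2 fold change stayed between 1.82 and 2.11. Its unadjusted p stayed between 0.000103 and 0.000414 (limma). Over all genes, 2 were called without each of the Chow libraries, 3 without HFpEF 1, 53 without HFpEF 2 and 1169 without HFpEF 3. With a pseudocount of 1 in place of 0.1 its log2 fold change was 1.19.

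Hspa1b was at 0.777, 1.22 and 1.39 FPKM in Chow 1 to 3, and at 3.68, 1.81 and 4.34 in HFpEF 1 to 3. The groups did not overlap, but HFpEF 2 lay nearer to the Chow libraries than to the other HFpEF libraries. The mean was 3.28 ± 1.31 (SD, n = 3) against 1.13 ± 0.315 (SD, n = 3), a ratio of 2.91, from 31 to 47 reads in Chow and 86 to 235 in HFpEF. The log2 fold change of 1.41 (standard error 0.37, 95% interval 0.53 to 2.28) did not pass the adjusted threshold in limma (adjusted p = 0.119, unadjusted p = 0.00713).

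How the counting placed reads between the 2 copies is uncertain. Of all stretches of 100 bases in the Hspa1a transcript, 47.1% are also found in that of Hspa1b, and 49.9% the other way round, the longest identical run being 638 bases, whereas the Hspa1a transcript shares no stretch of 100 bases with that of Hspa8. On the opposite strand, 564 of the 2967 exon bases of Hspa1a (19.0%) overlap the gene Gm20481, which had 0 reads in all 6 libraries. The sum of both copies, which holds reads assigned to either but not any reads left uncounted because they match both, was 1.34, 1.82 and 2.08 FPKM in Chow and 6.43, 3.98 and 7.64 in HFpEF. These groups did not overlap, and the means differed by a ratio of 3.44 (6.02 ± 1.86 against 1.75 ± 0.374, SD, n = 3, exact two-sided permutation p = 0.1, the smallest possible). As listed, Hspa1a was 73.1%, 49.6% and 50.3% of Hspa1b in Chow and 74.7%, 119.7% and 76.0% in HFpEF.

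Hspa8, on chromosome 9 from 40800984 to 40810087, encodes the constitutive HSP70 that serves protein folding, clathrin uncoating and chaperone-mediated autophagy in unstressed cells. It was at 256, 239 and 248 FPKM in Chow and at 192, 258 and 191 in HFpEF. HFpEF 1 and HFpEF 3 lay below the Chow range and HFpEF 2 just above it, so the groups overlapped. The log2 fold change was −0.23 (95% interval −0.62 to 0.16, adjusted p = 0.411 by limma), a value that turned positive with TPM (0.29), quantile normalization (0.18) and scaling to cardiomyocyte markers (0.49). TPM and cardiomyocyte scaling moved the median of all genes to 0.50 and 0.68, and relative to it Hspa8 stood at −0.21 and −0.19, against −0.22 under the scaling used here. With quantile normalization it stood at 0.23 relative to that median.

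In FPKM, the inducible HSP70 pair was small beside Hspa8 in both groups. The summed FPKM of Hspa1a and Hspa1b was 0.525%, 0.760% and 0.838% of that of Hspa8 in Chow 1 to 3, and 3.34%, 1.54% and 4.00% in HFpEF 1 to 3. The groups did not overlap. The log2 ratio was higher by 1.98 in HFpEF, or 3.95-fold (exact two-sided permutation p = 0.1, the smallest possible), and a ratio within a library does not change with the scaling between libraries. The percentages themselves depend on the exon lengths used for each gene. Any reads left uncounted because they match both copies are missing from the sum.

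**Figure D2:**
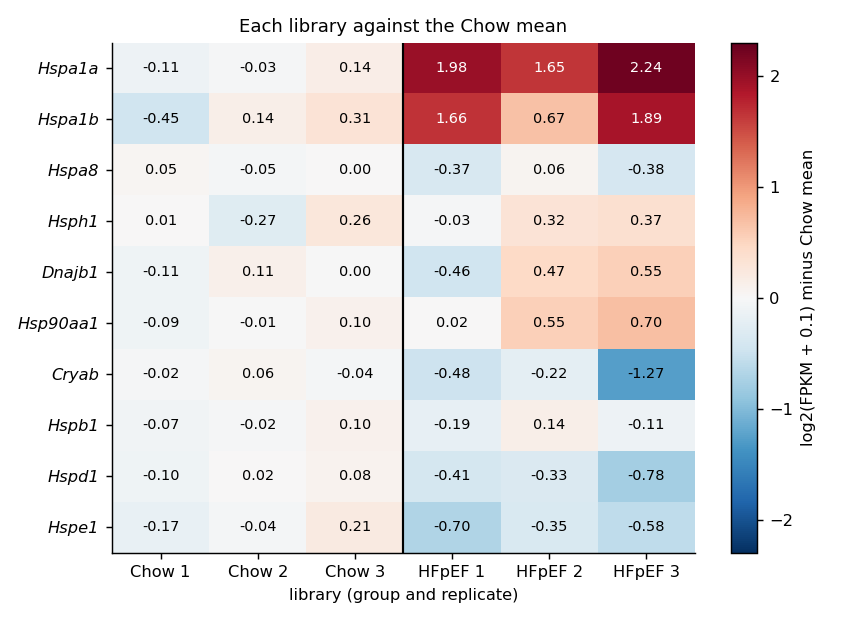
Each library's log2(FPKM + 0.1) minus the mean of the 3 Chow libraries, for the 10 genes (rows) and 6 libraries (columns), with red above and blue below the Chow mean. Hspa1a and Hspa1b were above it in all 3 HFpEF libraries, by 0.67 to 2.24, and Hsp90aa1 and Dnajb1 were above it by 0.47 to 0.70 in HFpEF 2 and HFpEF 3 but not in HFpEF 1 (0.017 and −0.46).

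The co-chaperones that work with HSP70 did not pass the test. Hsph1, on chromosome 5 from 149614287 to 149636376, encodes the HSP110 nucleotide exchange factor and was at 5.44, 4.45 and 6.50 FPKM in Chow and 5.30, 6.76 and 7.03 in HFpEF. Its groups overlapped, HFpEF 1 lying below Chow 1, and the log2 fold change was 0.22 (95% interval −0.21 to 0.65, adjusted p = 0.470 by limma). Dnajb1, on chromosome 8 from 83608193 to 83612653, encodes the J-domain partner of inducible HSP70. It was at 6.79, 7.90 and 7.30 FPKM in Chow and at 5.30, 10.2 and 10.8 in HFpEF. HFpEF 1 was the lowest of all 6 libraries and the other two HFpEF libraries were the highest, and the log2 fold change was 0.19 (95% interval −0.47 to 0.84, adjusted p = 0.695 by limma). Both intervals leave out the size fitted for Hspa1a.

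Hsp90aa1, on chromosome 12 from 110690605 to 110702728, encodes the inducible form of cytosolic HSP90. Its FPKM was 23.5, 25.0 and 26.9 in Chow and 25.5, 36.8 and 40.9 in HFpEF. HFpEF 1 lay within the Chow range and the other two HFpEF libraries above it. The mean was 34.4 ± 7.99 (SD, n = 3) against 25.1 ± 1.70 (SD, n = 3), and the log2 fold change of 0.42 (95% interval −0.030 to 0.87) did not pass the test (adjusted p = 0.236 by limma). Its constitutive counterpart Hsp90ab1 stood at −0.23 on the log2 scale (adjusted p = 0.326 by limma), and Hsp90aa1 was 6.03% to 6.65% of Hsp90ab1 in Chow and 7.30%, 10.5% and 13.3% in HFpEF 1 to 3. This ratio did not overlap between the groups (exact two-sided permutation p = 0.1, the smallest possible).

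Cryab, on chromosome 9 from 50751325 to 50756636, was the most abundant of the 10 genes. It was at 603, 638 and 595 FPKM in Chow and at 438, 525 and 254 in HFpEF. All HFpEF libraries were below all Chow libraries, and HFpEF 3 was far below the other two. The mean was 406 ± 139 (SD, n = 3) against 612 ± 23.3 (SD, n = 3), 33.7% lower, with a log2 fold change of −0.66 whose interval reached 0 (95% interval −1.33 to 0.012, adjusted p = 0.220 by limma). Without HFpEF 3 it was −0.35 (adjusted p = 0.0704), and with quantile normalization −0.22, or −0.17 relative to the median of all genes. It turned to 0.057 when libraries were scaled to the ventricular cardiomyocyte markers, whose geometric mean was also lowest in HFpEF 3 (548 FPKM). That scaling moved the median of all genes to 0.68, and relative to it Cryab stood at −0.62, against −0.65 under the scaling used here. Relative to these markers Cryab was at 51.7%, 53.7% and 47.8% in Chow and 52.5%, 61.7% and 46.1% in HFpEF, with overlap (exact two-sided permutation p = 0.8). Of the 1479 exon bases of Cryab, 252 (17.0%) overlap Hspb2 on the opposite strand, and strand-specific counting is not stated, so reads there cannot be assigned to either gene with certainty.

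Hspb1, on chromosome 5 from 135887919 to 135889563, encodes the small heat shock protein known as HSP25 in the mouse, which also binds actin filaments. It was at 139, 145 and 157 FPKM in Chow and at 129, 162 and 136 in HFpEF. The HFpEF values lay on both sides of the Chow range. The log2 fold change of −0.053 was the smallest of the 10 genes in size (95% interval −0.39 to 0.28, adjusted p = 0.840 by limma), and it was positive with TPM (0.47), quantile normalization (0.24), cardiomyocyte scaling (0.66) and without HFpEF 1 (0.017). Relative to the median of all genes it was −0.034 with TPM, −0.018 with cardiomyocyte scaling and 0.29 with quantile normalization. Its promoter is shown as an example of 2 matches of 2 units, in capitals, beside a difference near 0, and the stretch lies at chr5:135887779-135887858 on the plus strand of GRCm38.p6 (RefSeq).
Hspb1: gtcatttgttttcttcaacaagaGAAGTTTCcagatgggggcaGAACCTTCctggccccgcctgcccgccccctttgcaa

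All 5 other small heat shock protein genes tested had a negative log2 fold change, with a median of −0.52 that was −0.22 with quantile normalization, near 0 with TPM and 0.19 with cardiomyocyte scaling. Of the 5, 2 were lower at an unadjusted p under 0.05, where 13.1% of all genes were, and 0 had an adjusted p under 0.05 by limma. The largest difference was that of Hspb6, which encodes HSP20, a regulator of contraction that protein kinase A phosphorylates, whose FPKM was 186 ± 71.4 in HFpEF against 308 ± 7.60 in Chow (SD, n = 3; log2 fold change −0.82, adjusted p = 0.192 by limma). Hspb3, a muscle small heat shock protein, came next at −0.69 (adjusted p = 0.249). Cryaa, the lens partner of Cryab, was at most near 0 and was not tested.

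Hspd1 and Hspe1 encode the mitochondrial chaperonin HSP60 and its lid HSP10, and they lie head to head on chromosome 1, Hspd1 (ENSMUSG00000025980) from 55077835 to 55088243 on the minus strand and Hspe1 (ENSMUSG00000073676) from 55088132 to 55091307 on the plus strand. They share 112 exon bases on opposite strands, which are 4.24% of the exon bases of Hspd1 and 7.60% of those of Hspe1. A stretch near both starts is shown because both genes had lower FPKM in HFpEF and because it holds matches of 3 units. The 30 bases at chr1:55088053-55088082 of GRCm38.p6 (RefSeq), read once along each gene's own strand, hold 3 overlapping matches of 2 units, in capitals, which together form 2 overlapping matches of 3 units. They begin 89, 84 and 79 bases before the RefSeq start of Hspe1, and 144, 139 and 134 bases before 1 of 2 RefSeq starts of Hspd1. The other Hspd1 start is the annotated end at 55088243, from which transcription of the minus strand runs, so the stretch lies after it and overlaps an Hspd1 exon, and the window around that start (chr1:55088194-55088493) held no match.
Hspd1: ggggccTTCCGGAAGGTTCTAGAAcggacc
Hspe1: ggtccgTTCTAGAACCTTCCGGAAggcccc

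Hspd1 was at 114, 123 and 129 FPKM in Chow and at 91.8, 97.0 and 71.0 in HFpEF. The groups did not overlap, and HFpEF 3 was the lowest. The mean was 86.6 ± 13.8 (SD, n = 3) against 122 ± 7.87 (SD, n = 3), 29.1% lower, and the log2 fold change of −0.51 (95% interval −0.88 to −0.14) did not pass the adjusted threshold (adjusted p = 0.146, unadjusted p = 0.0147 by limma). Without HFpEF 3 it was −0.37 with an adjusted p of 0.0406 by limma, in a fit where 8.22% of all genes passed.

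Hspe1 was at 46.1, 50.2 and 59.6 FPKM in Chow and at 31.9, 40.6 and 34.6 in HFpEF. Again the groups did not overlap, and here HFpEF 1 was the lowest. The mean was 35.7 ± 4.44 (SD, n = 3) against 52.0 ± 6.95 (SD, n = 3), 31.3% lower, with a log2 fold change of −0.54 (95% interval −0.89 to −0.19, adjusted p = 0.125, unadjusted p = 0.00887 by limma).

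The ratio of the 2 chaperonin genes overlapped between groups. Hspd1 was 2.47, 2.45 and 2.17 times Hspe1 in Chow and 2.88, 2.39 and 2.05 times in HFpEF, and the log2 ratio differed by 0.035 (exact two-sided permutation p = 1.0). Relative to the ventricular cardiomyocyte markers, Hspd1 was at 9.76%, 10.4% and 10.4% in Chow and at 11.0%, 11.4% and 12.9% in HFpEF, which is higher in all 3 HFpEF libraries (exact two-sided permutation p = 0.1, the smallest possible). With libraries scaled to these markers the log2 fold changes were 0.21 for Hspd1 and 0.17 for Hspe1, and with TPM that of Hspd1 was 0.014. These scalings moved the median of all genes tested as well, to 0.68 and 0.50. Relative to that median Hspd1 was at −0.47 and −0.49 and Hspe1 at −0.51 and −0.52. With quantile normalization Hspd1 and Hspe1 stood at −0.21 and −0.33 relative to the median of all genes.

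**Figure D3:**
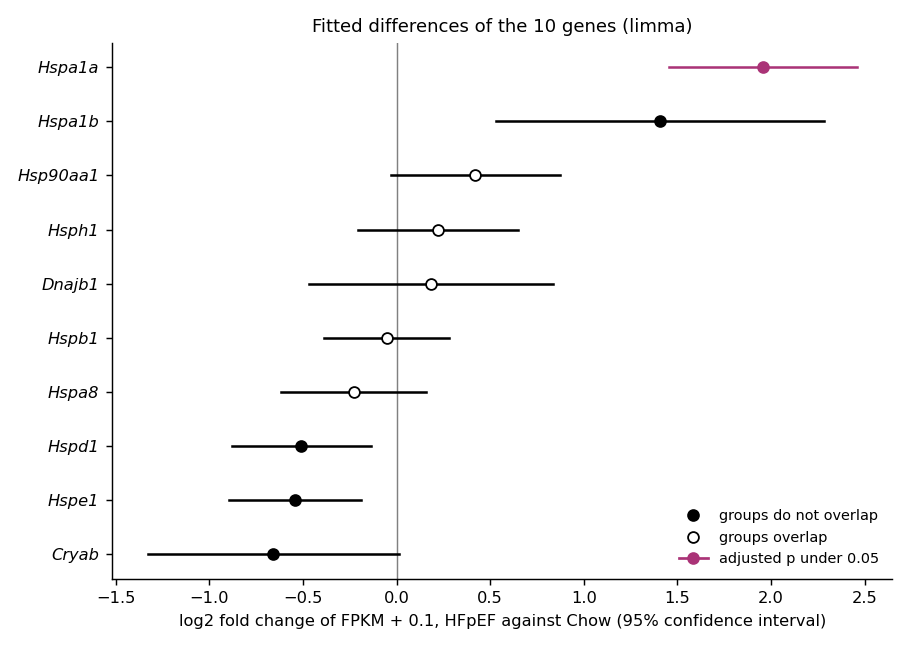
Fitted log2 fold change of FPKM + 0.1 in HFpEF against Chow (horizontal axis) with its 95% confidence interval for each of the 10 genes, from limma on 3 libraries per group; filled points mark groups that did not overlap. The interval of Hspa1a ran from 1.45 to 2.46, and those of Hspd1 and Hspe1 lay below 0 under the scaling used here but not with libraries scaled to cardiomyocyte markers, which moved the median of all genes to 0.68.

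The genes of 9 chaperone lists around the 10 were fitted in the same table. Of 86 genes tested in these lists, 0 had an adjusted p under 0.05 by limma, 6 had an unadjusted p under 0.05 in the higher direction and 21 in the lower, where 10.2% and 13.1% of all genes did, and the median log2 fold change was −0.18. The sign of a list's median depended on the scaling, because TPM and cardiomyocyte scaling moved the median of all genes to 0.50 and 0.68. With cardiomyocyte scaling all 9 medians were positive. Relative to the median of all genes, each list stood on the same side under the scaling used here, TPM and cardiomyocyte scaling, and so it did with quantile normalization except for the CCT chaperonin, which moved from −0.14 to 0.015. Quantile normalization also brought the other J-domain proteins from −0.11 to −0.011 and the BAG list from −0.17 to −0.015. The endoplasmic reticulum chaperones moved away from that median, from 0.25 to 0.40.

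Mitochondrial protein folding and quality control genes had the lowest median of the 9 lists. All 14 had a negative log2 fold change, with a median of −0.55, and 10 were lower at an unadjusted p under 0.05, where 13.1% of all genes were. The largest differences were those of Dnaja3, the J-domain partner of mitochondrial HSP70 (−0.70, adjusted p = 0.135 by limma), and Grpel1, its nucleotide exchange factor (−0.69, adjusted p = 0.115). Dnaja3 was at 39.7 to 41.9 FPKM in Chow and at 29.3, 29.7 and 18.1 in HFpEF 1 to 3. The median of the list was −0.033 with TPM and 0.16 with cardiomyocyte scaling, and relative to the median of all genes it was −0.54 and −0.52. Under these scalings 13 of the 14 stood below that median, and none was lower than Chow at an unadjusted p under 0.05. At that p by limma, 1 was higher with TPM and 2 with cardiomyocyte scaling. With quantile normalization the median was −0.39, or −0.34 relative to all genes, and 8 were lower at an unadjusted p under 0.05. The shares of all genes in these 3 fits are not given. Ventricular cardiomyocyte markers (geometric mean 38.0% lower in HFpEF) and mitochondrially encoded genes (16.6% ± 8.27 against 24.8% ± 1.03 of reads, SD, n = 3) moved the same way, and their part in the result was not tested.

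The endoplasmic reticulum (ER) chaperones had the only positive median among the 9 lists under the main scaling. Of 15 genes, 12 had a positive log2 fold change, the median was 0.23, and 4 were higher at an unadjusted p under 0.05, where 10.2% of all genes were. Sdf2l1, which supports BiP in the ER, was at 2.23 to 4.18 FPKM in Chow and 4.50 to 9.11 in HFpEF (log2 fold change 0.90, adjusted p = 0.189 by limma). Pdia4, a protein disulfide isomerase, was at 12.5 to 13.1 FPKM in Chow and 14.5, 18.3 and 29.5 in HFpEF 1 to 3 (0.63, adjusted p = 0.200). Hspa5, which encodes BiP itself, overlapped between groups at a log2 fold change of −0.12 (adjusted p = 0.614). The summed fibroblast markers were highest in HFpEF 3, as Sdf2l1 and Pdia4 were, and their part in the result was not tested.

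Cytosolic partners of HSP70 and HSP90 mostly had small negative log2 fold changes under the scaling used here. Of 12 genes of HSP90 and its co-chaperones, 10 had a negative log2 fold change, with a median of −0.26 and 4 lower and 1 higher at an unadjusted p under 0.05, where 13.1% and 10.2% of all genes were. Fkbp4, the HSP90 co-chaperone FKBP52 of steroid receptors, was at 132 to 142 FPKM in Chow and 67.5 to 96.1 in HFpEF (−0.70, adjusted p = 0.115 by limma), and Unc45b, a myosin chaperone of striated muscle, was at −0.36 (adjusted p = 0.321). Among 11 other J-domain proteins the median was −0.12, and −0.061 with quantile normalization. Dnaja4 was at −0.48 (adjusted p = 0.327 by limma) and Dnaja2 at −0.45 (adjusted p = 0.174). The 9 BAG and other HSP70 cofactors had a median of −0.18, and −0.065 with quantile normalization. Bag3, which pairs with small heat shock proteins at the Z-disc, was at −0.33 (adjusted p = 0.313 by limma) and Bag1 at −0.32 (adjusted p = 0.187). The 8 genes of the cytosolic CCT chaperonin, which folds actin and tubulin, all had negative log2 fold changes under the scaling used here, at a median of −0.16 that was −0.035 with quantile normalization, led by Cct7 at −0.25 (adjusted p = 0.177) and Cct2 at −0.20 (adjusted p = 0.304).

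Among 8 other HSP70 and HSP110 genes the median was −0.14. Hspa2, an HSP70 best known from the testis, was at 2.26 to 3.25 FPKM in Chow and 4.17 to 4.55 in HFpEF, without overlap (log2 fold change 0.65, adjusted p = 0.117 by limma). Hspa12a, a distant HSP70 relative, was at −0.52 (adjusted p = 0.240). Hspa1l, the third gene of the HSP70 cluster on chromosome 17, was at 0.498 and 0.568 FPKM on average and overlapped between groups (log2 fold change 0.17, adjusted p = 0.809). Whether its difference was smaller than those of its neighbours Hspa1a and Hspa1b was not tested.

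The transcript of heat shock factor 1 itself did not pass the test. Hsf1 was at 4.94, 5.07 and 4.79 FPKM in Chow and 4.26, 4.36 and 3.10 in HFpEF, with all HFpEF libraries lower in FPKM (log2 fold change −0.34, 95% interval −0.71 to 0.024, adjusted p = 0.236 by limma). Hsf4 was at −0.44 (adjusted p = 0.187), and the 4 genes of the list had a median of −0.30. The activity of the factor is set after translation and was not measured.

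HFpEF 3 widened the spread of these lists, and the same fit without it called more of their genes. Of the 86 genes, 12 then had an adjusted p under 0.05 by limma, 2 higher and 10 lower, in a fit where 8.22% of all genes passed. The mitochondrial list held 7 of the 12, all lower: Hspa9, the mitochondrial HSP70, at −0.43 (adjusted p = 0.0171), its cofactors Dnaja3, Grpel1 and Dnajc19 at −0.47, −0.52 and −0.49 (adjusted p = 0.0163, 0.0183 and 0.0455), and the proteases or unfoldases Lonp1, Clpx and Afg3l2 at −0.52, −0.46 and −0.44 (adjusted p = 0.0138, 0.0171 and 0.0156). The others were Hspb6 and Hspb8 at −0.45 and −0.31 (adjusted p = 0.0240 and 0.0368), Fkbp4 at −0.54 (adjusted p = 0.0139), and the ER genes Dnajc3, a J-domain protein that also inhibits the kinase PERK, and Creld2 at 0.40 and 0.44 (adjusted p = 0.0387 and 0.0489). The median of the ER list was 0.12 in that fit, with 8 of 15 genes positive, and that of the mitochondrial list −0.39.

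**Figure D4:**
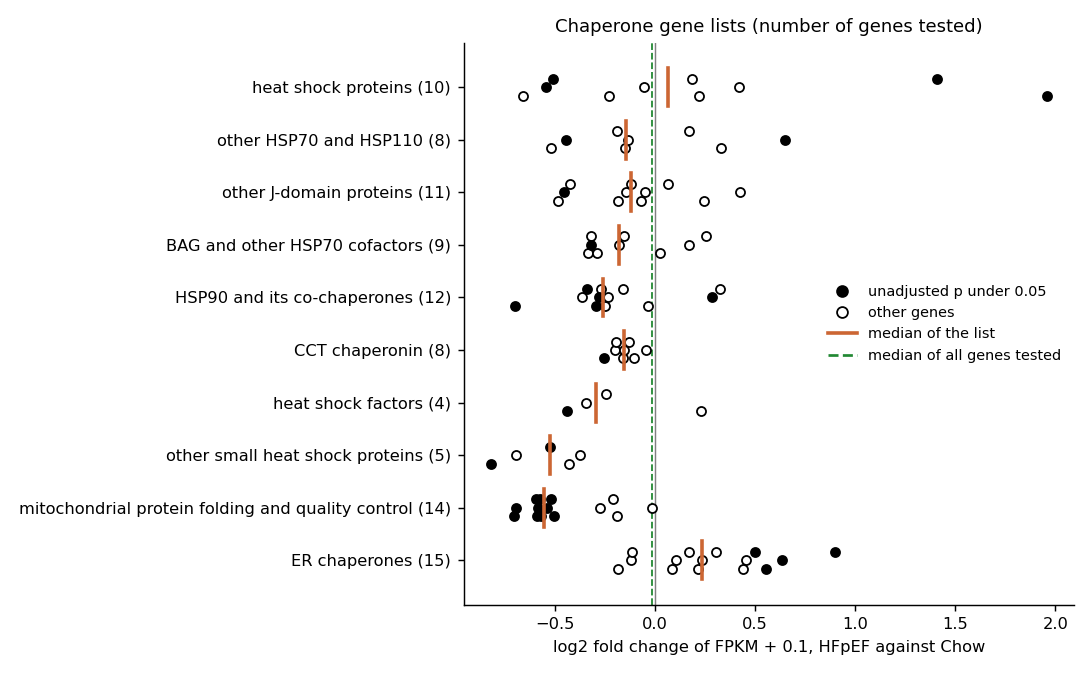
Fitted log2 fold change of FPKM + 0.1 in HFpEF against Chow (horizontal axis) for each tested gene of the 10 heat shock protein genes and of 9 chaperone lists (rows, with the number of genes); filled points have an unadjusted p under 0.05, orange bars are list medians and the dashed line is the median of all genes tested. The mitochondrial list had a median of −0.55 and the ER list of 0.23 under the scaling used here, and the former was 0.16 with libraries scaled to cardiomyocyte markers.

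Lists of genes that respond to temperature, stress hormones, time of day and acute stimulation were read in the same fit. The cold-inducible RNA-binding protein genes Rbm3 and Cirbp overlapped between groups (log2 fold changes 0.16 and −0.15, adjusted p = 0.555 and 0.533 by limma). Of 7 glucocorticoid-responsive genes, 3 were higher in FPKM without overlap, where 15.6% of all genes were, namely Cdkn1a, Fkbp5 and Errfi1 (log2 fold changes 1.49, 0.80 and 0.34, adjusted p = 0.177, 0.144 and 0.296), while the median of the list was 0.036. Of 12 immediate early genes tested, 10 had a positive log2 fold change, with a median of 0.37. Atf3, a stress-induced transcription factor, was at 1.63 to 2.73 FPKM in Chow and 5.73, 3.37 and 13.6 in HFpEF 1 to 3 (1.53, adjusted p = 0.155), and Fos overlapped, at 0.866, 7.36 and 1.76 against 5.47, 2.84 and 23.6 FPKM (1.62, adjusted p = 0.345). Of 13 circadian clock genes, 10 had a negative log2 fold change, with a median of −0.14. None of the 13 had an unadjusted p under 0.05 in limma, where 23.3% of all genes did. The largest differences were positive, those of Arntl and Npas2 at 0.74 and 0.72 (adjusted p = 0.375 and 0.349).

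The genes whose log2(FPKM + 0.1) followed the mean of Hspa1a, Hspa1b, Hsph1 and Dnajb1 most closely over the 6 libraries included Tceal8, Luc7l3, Ppfibp1 and Entpd2, with Pearson r from 0.989 to 0.999 among 6443 genes ranked. In that mean all 3 HFpEF libraries were above all Chow libraries, so any gene that separates the groups scores high, and r is given as a description over 6 libraries that share the 2 groups. Tceal8 was at 4.00, 4.42 and 5.03 FPKM in Chow and 6.73, 6.77 and 8.75 in HFpEF. Of 74 genes of the chaperone lists that were ranked, 2 were among the first 100, namely Dnajc3 (r = 0.986) and Creld2 (r = 0.964), both of the ER. The same r was read for the 10 heat shock protein genes themselves. Among those that are part of the mean it was 0.97 for Hspa1a, 0.93 for Hspa1b, 0.62 for Hsph1 and 0.43 for Dnajb1. For the others it was 0.83 for Hsp90aa1, −0.91 for Hspd1, −0.88 for Cryab, −0.76 for Hspe1, −0.71 for Hspa8 and −0.21 for Hspb1. The mean was not scaled by gene, so Hspa1a and Hspa1b, with the largest differences, weighed most in it.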

How the data were processed

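RNA from the hearts of 3 Chow and 3 HFpEF mice had been sequenced by the authors, who used HISAT2 for alignment and featureCounts for gene-level counting and deposited FPKM values. The submitters' processing notes name GRCm38 (mm10), and the annotation release and the strand setting are not given in the sources used here. Identifiers were matched to GENCODE M21 (54495 of 54532). FPKM multiplied by exon length gave whole reads for 96.1% to 96.2% of values at a relative tolerance of 1e-06, and for all 10 genes in all libraries.

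Libraries were rescaled with median-of-ratios factors (1.003 to 1.006), 0.1 was added to each FPKM, and the log2 values went into limma 3.58.1 in R 4.3.3 (lmFit and eBayes, using its trend and robust settings). Genes needed 3 or more libraries at or above 0.5 FPKM, with Benjamini-Hochberg adjustment over all 14225. An adjusted p below 0.05 counted as called. Every adjusted p is from limma. Each mouse gave 1 library. Single values were compared by exact two-sided permutation tests. Other software was matplotlib 3.10.9, scipy 1.17.1, pandas 2.3.3 and numpy 2.4.6 under Python 3.11.15. The fit was tested on simulated data.

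The 10 genes, the lists and the tests were chosen with earlier results of these data known. Genes named from the 9 chaperone and 4 context lists were those with an adjusted p under 0.05, or otherwise the 2 with the largest absolute log2 fold change, together with Hsf1 and Hspa5, and the 5 genes of mean FPKM of at least 5 closest to the mean of 4 inducible genes, not all of which are reported here. Further genes (Hsp90ab1, Hspa1l, Gm20481, Hspb2, Cryaa, Errfi1, and those called without HFpEF 3) were chosen after their values were seen. Alternatives were FPKM as deposited, TPM, pseudocounts of 0.01 and 1, quantile normalization, a minimum of 1 FPKM or none, eBayes without trend or robust options, a replicate block, limma voom on recovered reads and leaving out each library. Scaling to ventricular cardiomyocyte markers, and the 3 libraries with the lowest atrial marker levels alone, were added after seeing the data. Promoter sequences came from RefSeq windows on GRCm38.p6. The 10 marker lists were read as summed FPKM.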

Additional observations from a re-analysis of the deposited data

How the results depend on the processing

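The number of the 10 genes called by limma was 1, and it was 0 with TPM, pseudocounts of 0.01 and 1, quantile normalization, a minimum of 1 FPKM or none and voom on recovered reads, where the adjusted p of Hspa1a lay between 0.0510 and 0.0781. In these fits 0% to 0.246% of all genes passed. The number stayed at 1 with FPKM as deposited and without trend or robust options, where 0.0984% and 0.225% of all genes passed. FPKM as deposited is nearly the main fit, whose factors were 1.003 to 1.006, so its call was not a separate check. An unadjusted p under 0.05 was reached by 4 of the 10 in the main fit, beside 23.3% of all genes. It was reached by 3 to 6 over the alternatives with more than 1 library in each group, and the shares of all genes there are not given. Leaving out each library gave 0 to 2 calls, and 2 only without HFpEF 3 (Hspa1a and Hspd1), where 8.22% of all genes passed. There was 1 call without HFpEF 2, where 0.373% passed, and 0 in the others, where 0.0141% to 0.0211% passed. The log2 fold change of Hspb1 ran from −0.149 to 0.017, the latter without HFpEF 1. Scaling to ventricular cardiomyocyte markers, chosen after seeing the data, gave 4 calls (Hspa1a, Hspa1b, Hsp90aa1 and Hspb1, all higher) in a fit where 25.9% of all genes passed. The libraries with the lowest atrial marker levels were Chow 1, Chow 2 and HFpEF 3, at 0.528 to 12.6 FPKM. In a fit of these alone, the lone HFpEF library was assumed to vary like Chow. That fit gave 8 calls, where 34.2% of all genes passed the adjusted threshold. An unadjusted p under 0.05 was reached there by 9 of the 10, and the share of all genes is not given. Because 1 HFpEF library has no spread of its own, these counts cannot test a group difference. Cryab was at −1.30 in that fit.

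The median log2 fold change of the 10 genes was 0.59 with TPM and 0.78 with cardiomyocyte scaling, or 0.085 and 0.097 above that of all genes. Values that turned positive were Hspa8 (0.29 with TPM, 0.18 with quantile normalization, 0.49 with cardiomyocyte scaling), Hspb1 (0.47, 0.24 and 0.66), Hspd1 (0.014 with TPM and 0.21 with cardiomyocyte scaling), and, with cardiomyocyte scaling, Cryab (0.057) and Hspe1 (0.17). The summed FPKM turned to 244 higher with TPM. The log2 ratio of Hspd1 to Hspe1 ran from −0.091 to 0.15 over the libraries left out, that of inducible to constitutive HSP70 from 1.71 to 2.40, and the summed FPKM difference from −381 to −188. The cause of these changes was not tested, beyond the shift of all genes that TPM and cardiomyocyte scaling carry.

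Deviations of same-numbered libraries from their group means correlated at −0.041, −0.073 and −0.057, and those of differently numbered libraries at −0.0023 to 0.072. Because the deviations sum to 0 within each group, these values are tied to each other. Same-numbered values were not the higher ones, so no positive pairing was seen. With 3 mice per group this cannot settle whether the numbers pair the mice. With the replicate number as a block, 0 of the 10 genes were called and the adjusted p of Hspa1a was 0.193 (limma), with 2 genes called in all. The low read numbers of Hspa1a and Hspa1b in Chow (21 to 47) limit the precision of their folds.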

Other observations

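Heat shock element letters in the promoter window did not go with a higher value among the chaperone genes around the 10. Of 70 such genes tested and with a RefSeq window, 16 held a match of 2 units, with a median log2 fold change of −0.25 (3 positive and 13 negative), and 54 held none, with a median of −0.17 (16 positive and 38 negative), as a description with no test. The 2 genes with a match of 3 units were Chordc1 and Dnajb6, at 0.32 and −0.068.

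The remaining marker lists were read as summed FPKM. Cartilage, tendon and valve genes were at 6.04 to 12.0 in Chow, where Tnmd was at 0, and at 45.6 to 75.6 in HFpEF. Macrophage genes were at 129 to 161 in Chow and 157 to 424 in HFpEF, and smooth muscle and pericyte genes at 238 to 284 and 183 to 646. Endothelial genes were at 246 to 269 in Chow and 205 to 246 in HFpEF. Red blood cell genes were at 280 to 1591 and 478 to 1813. Skeletal muscle genes were at 1.51 to 2.82 and 2.12 to 2.61, with Myh4 at 0 in all libraries.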
